A study of Mus musculus with 6 samples.

Results

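Classical class I presentation and the immunoproteasome were described here in the palatal shelves of mouse embryos at E14.5, through 10 genes of the 55631 in the deposited table. They are the heavy chains H2-K1 and H2-D1, the light chain B2m, the peptide transporter genes Tap1 and Tap2, the loading chaperone Tapbp, the immunoproteasome subunits Psmb8, Psmb9 and Psmb10, and the regulator Nlrc5. All 10 were found by the symbol of their Ensembl ID. The ID is ENSMUSG00000061232 for H2-K1, ENSMUSG00000073411 for H2-D1, ENSMUSG00000060802 for B2m, ENSMUSG00000037321 for Tap1 and ENSMUSG00000024339 for Tap2. It is ENSMUSG00000024308 for Tapbp, ENSMUSG00000024338 for Psmb8, ENSMUSG00000096727 for Psmb9, ENSMUSG00000031897 for Psmb10 and ENSMUSG00000074151 for Nlrc5. The genes were chosen by their role and with the KO and control values of the same libraries already known. The differences between the groups given for them below are therefore a description and no independent test.

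The series compared 3 control with 3 KO libraries of bulk RNA. Control embryos carried the floxed allele p130Casfl/fl and no Cre is named for them. KO embryos carried p130Casfl/fl with CAG-Cre, a recombinase driven by a promoter that is active in most tissues, so loss of p130Cas and the presence of Cre cannot be told apart by this design. The labels name no strain, sex or litter, so the H2 haplotype of the embryos is not known here. P-values then reflect only how far these samples scatter, which may be technical. Bcar1, the gene for p130Cas, stood at 1.80, 1.97 and 2.09 FPKM across controls 1 to 3, against 1.69, 1.69 and 1.31 FPKM across KO libraries 1 to 3, a difference that did not pass the test. FPKM scales fragments to the length of the gene and the size of the library, so levels of different genes can be compared per length. The FPKM of a library summed to between 384979 and 424993, and how many reads a value rests on is unknown. Palatal mesenchyme markers such as Osr2 and Msx1 summed to between 562 and 601 FPKM in control and between 536 and 662 FPKM in KO libraries, and markers of oral epithelium to between 351 and 466 FPKM and between 309 and 546 FPKM.

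Class I molecules show peptides from inside the cell to T cells and natural killer cells. Proteasomes cut proteins into peptides, the Tap1 and Tap2 transporter moves them into the endoplasmic reticulum, and tapasin, the product of Tapbp, helps load them on a heavy chain bound to B2m. Interferons are known to raise most of these genes and to exchange the catalytic subunits of the standard proteasome for those of the immunoproteasome. Nlrc5 is a transactivator of class I genes. Most cells of an early embryo are known to carry little class I protein.

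The promoters of the members were read first, because H2-K1, H2-D1 and B2m, the chains of the class I molecule itself, each hold a pair of sequence features. This choice was made after the windows had been read. RefSeq windows of GRCm38.p6, which reach from 250 bases before to 50 bases after a start site, were found for 8 of the 10 members. Tap2 and Nlrc5 had none. Letters of 6 motifs were searched on both strands, among them a consensus for NF-kB, a transcription factor of inflammation, and 2 forms of the element that interferon factors bind, called ISRE. One ISRE form was GAAANNGAAA. The other, GAANNGAAA, was chosen after the H2 windows had been read. In the H2 genes an NF-kB match was followed after 10 bases by the second ISRE form, and in B2m the first ISRE form was followed after 3 bases by an NF-kB match. These stretches are shown on the strand of the gene, with the matched letters in capitals.
H2-K1: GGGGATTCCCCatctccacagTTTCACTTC
H2-D1: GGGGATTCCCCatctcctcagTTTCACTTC
B2m: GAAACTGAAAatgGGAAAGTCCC

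The H2-K1 stretch lies at chr17:34000429-34000458 on the minus strand, from 111 to 82 bases before the first of the 2 RefSeq starts of the gene, at 34000347. From the other start, at 34000333, the same letters lie 125 to 96 bases before. The H2-D1 stretch lies at chr17:35262923-35262952 on the plus strand, from 171 to 142 bases before the RefSeq start. It lies within annotated exons, as do all 250 bases before that start, since the annotated gene already begins at 35262730. The H2-K1 and H2-D1 stretches differ at 1 of 30 positions, A18T, counted from 1 at the 5′ end with the H2-K1 base first. The B2m stretch lies at chr2:122147548-122147570 on the plus strand, from 139 to 117 bases before the start. The ISRE letters of the H2 genes and the NF-kB letters of B2m are on the opposite strand, so they read as the reverse complement. The 300-base windows of H2-K1 and H2-D1, laid side by side without gaps at an offset of 60 bases, were identical at 176 of 240 bases (73.3%), with a longest identical run of 47 bases. The wider stretches upstream of H2-K1, at chr17:34000348-34000597 on the minus strand, and of B2m, at chr2:122147437-122147685 on the plus strand, lie outside the exons of the annotation and show where the pair sits.
H2-K1: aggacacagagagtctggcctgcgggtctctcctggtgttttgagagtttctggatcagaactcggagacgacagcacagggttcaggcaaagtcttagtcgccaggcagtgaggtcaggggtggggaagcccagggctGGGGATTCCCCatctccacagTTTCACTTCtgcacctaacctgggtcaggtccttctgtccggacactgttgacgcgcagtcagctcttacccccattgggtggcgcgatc
B2m: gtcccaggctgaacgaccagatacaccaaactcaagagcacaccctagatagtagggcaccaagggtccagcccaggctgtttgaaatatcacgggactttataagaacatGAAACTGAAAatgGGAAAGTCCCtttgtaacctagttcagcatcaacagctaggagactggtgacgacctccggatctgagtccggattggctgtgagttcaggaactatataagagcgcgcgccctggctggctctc

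Across all 32851 promoter windows of the table, 8.46% held an NF-kB match, 3.44% held GAAANNGAAA and 7.52% held GAANNGAAA. NF-kB letters were found in the windows of H2-K1, H2-D1 and B2m, and in none of the windows of Tap1, Psmb9, Psmb8, Tapbp and Psmb10. The CRE letters TGACG, which stand in the X2 box of class I promoters, were found in the windows of 5 members, H2-K1, H2-D1, B2m, Tap1 and Psmb9, beside 20.81% of all windows. The CCAAT box was found in 6 members, beside 37.41% of all windows. The GAS letters TTCNNNGAA, an element of genes that interferon gamma raises, were found in Psmb8 alone among the members, beside 8.30% of all windows. Tap1 and Psmb9 point away from each other, with 225 bases between their RefSeq starts, and their windows share 275 bases and therefore their TGACG and CCAAT matches. For Tap1, Psmb9, Psmb8 and Tapbp, as for H2-D1, all 250 bases before the RefSeq start lie in annotated exons of some gene on either strand. A match of letters is a description of the window and shows no binding.

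**Figure D1:**
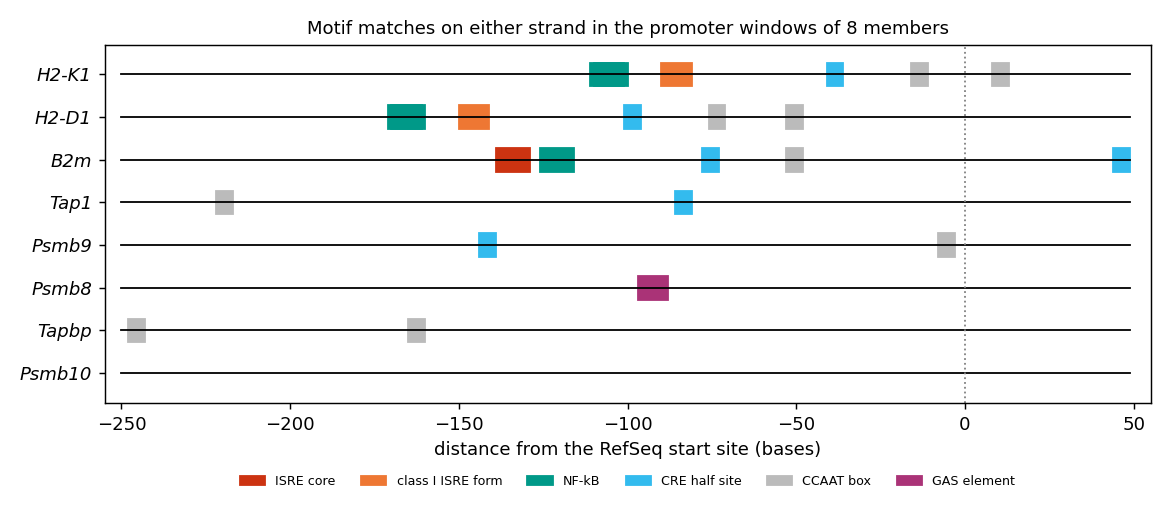
Matches of 6 motifs on either strand in the RefSeq promoter windows of 8 members, drawn by distance from the start site in bases (for H2-K1 the first of its starts); coloured boxes span the matched letters. An NF-kB match stands beside an ISRE form in H2-K1, H2-D1 and B2m, and Psmb10 has no match.

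The KO shelves carried more transcript of the class I heavy chains and of their light chain. In bulk RNA more cells of a type and more transcript per cell cannot be told apart. H2-K1 stood at 2.64, 2.61 and 2.10 FPKM across controls 1 to 3, against 13.8, 26.1 and 16.5 FPKM across KO libraries 1 to 3. All 3 KO libraries were above all 3 controls, and KO replicate 2 was the highest. The mean went from 2.45 ± 0.306 to 18.8 ± 6.47 FPKM (SD, n = 3 each), and the difference in log2(FPKM + 1), used as the log2 fold change throughout, was 2.48 ± 0.21 (SE).

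H2-D1, the other classical heavy chain, stood at 5.70, 5.84 and 5.81 FPKM across controls 1 to 3, against 23.3, 39.8 and 26.3 FPKM across KO libraries 1 to 3. Controls lay close together and KO libraries were spread widely, again with KO replicate 2 highest. The log2 fold change was 2.15 ± 0.17 (SE). B2m, which every class I heavy chain needs to reach the surface, stood at 54.1, 57.4 and 67.9 FPKM across controls 1 to 3, against 127, 159 and 144 FPKM across KO libraries 1 to 3. The groups did not overlap, and the log2 fold change was 1.25 ± 0.11 (SE). B2m had the highest level of the members in every library and ranked at 963 of 14714 tested genes by its control mean and at 315 by its KO mean. H2-K1 ranked at 12200 by its control mean and at 4139 by its KO mean, and H2-D1 at 9367 and 2419.

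The classical heavy chains and the light chain differed in how far apart their groups were. Per length, B2m exceeded the sum of H2-K1 and H2-D1 by a factor of 6.49, 6.79 and 8.58 in control replicates 1 to 3 and of 3.42, 2.42 and 3.36 in KO replicates 1 to 3. The KO ratios were all below the control ratios. H2-D1 exceeded H2-K1 in every library, by 2.16, 2.23 and 2.77 times in control and by 1.68, 1.52 and 1.59 times in KO replicates 1 to 3. Both are ratios within a library, so the scaling of a library does not enter them.

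**Figure D2:**
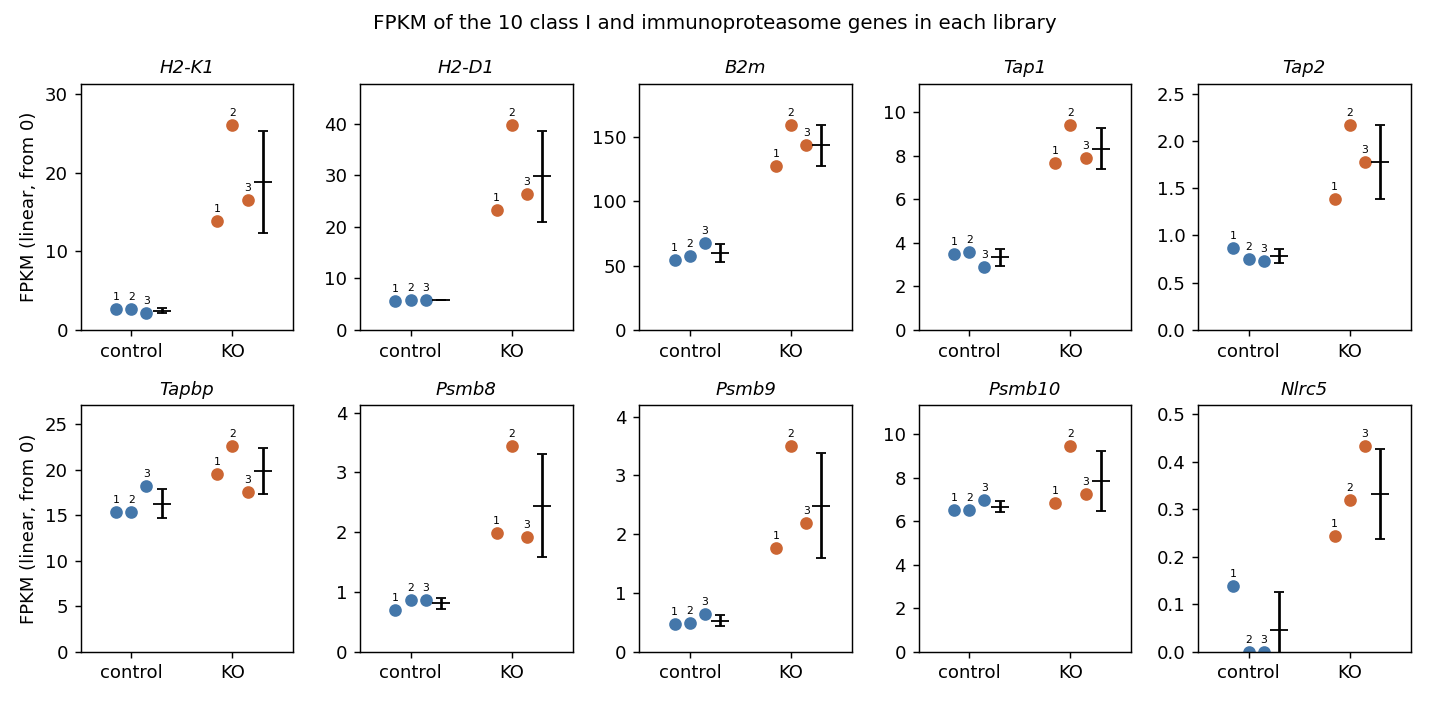
FPKM of each of the 10 genes in each library on linear axes from 0; numbers beside the points are replicate numbers, and the bar is the mean with its SD (n = 3). The groups do not overlap for 8 genes and overlap for Tapbp and Psmb10, and KO replicate 2 is the highest library for 9 of the 10.

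Of the genes for peptide transport and loading, Tap1 had the largest log2 fold change. Tap1, the transporter subunit that lies head to head with Psmb9, stood at 3.50, 3.60 and 2.90 FPKM across controls 1 to 3, against 7.67, 9.43 and 7.91 FPKM across KO libraries 1 to 3. No KO library reached down to the controls, and the log2 fold change was 1.11 ± 0.11 (SE). Tap2, its partner in the transporter, stood at 0.864, 0.748 and 0.730 FPKM across controls 1 to 3, against 1.38, 2.17 and 1.78 FPKM across KO libraries 1 to 3. Its groups did not overlap either, and at these low levels the log2 fold change came to 0.63 ± 0.13 (SE). The ratio of Tap1 to Tap2 overlapped between the groups, from 3.98 to 4.81 in control and from 4.34 to 5.54 in KO libraries.

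Tapbp, which bridges the transporter and the heavy chain, was already at 15.4, 15.3 and 18.2 FPKM across controls 1 to 3, against 19.5, 22.6 and 17.5 FPKM across KO libraries 1 to 3. The groups overlapped, since KO replicate 3 was below control replicate 3, and the log2 fold change was 0.27 ± 0.11 (SE). Tapbp was the second most abundant member in control libraries, above both heavy chains. In each KO library H2-D1 was above it, while H2-K1 was above it in KO replicate 2 alone. Tapbp exceeded Tap1 by a factor between 4.26 and 6.26 in control and between 2.21 and 2.55 in KO libraries.

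The immunoproteasome subunits did not behave alike. Psmb8, which replaces the standard subunit Psmb5, stood at 0.702, 0.865 and 0.864 FPKM across controls 1 to 3, against 1.98, 3.44 and 1.92 FPKM across KO libraries 1 to 3, with no overlap and a log2 fold change of 0.90 ± 0.17 (SE). Psmb9, which replaces Psmb6, stood at 0.465, 0.488 and 0.637 FPKM across controls 1 to 3, against 1.77, 3.49 and 2.19 FPKM across KO libraries 1 to 3, with no overlap and a log2 fold change of 1.16 ± 0.18 (SE). Psmb10, which replaces Psmb7 and lies outside the H2 region, stood at 6.52, 6.50 and 6.96 FPKM across controls 1 to 3, against 6.85, 9.44 and 7.25 FPKM across KO libraries 1 to 3. KO replicate 1 lay within the range of the Psmb10 controls, and the log2 fold change was 0.20 ± 0.12 (SE). Psmb10 was the most abundant of these subunits in every library.

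The standard subunits were far more abundant and their groups overlapped. Psmb5 stood at 85.4 ± 4.86 FPKM for controls, against 84.7 ± 10.2 for KO (SD, n = 3 each), with a log2 fold change of -0.02 ± 0.09 (SE) that turned above 0 under 3 scalings and without any 1 of 4 libraries. Psmb6 stood at 149 ± 12.5 and 142 ± 15.7 FPKM, and Psmb7 at 89.4 ± 7.11 and 82.3 ± 5.50 FPKM. None of the standard subunits passed in limma (adjusted p = 1.00 for each), and 0 of these 3 had an unadjusted p under 0.05. The transcript share of the immunoproteasome form was therefore small in both groups. Psmb8 made up 0.872, 0.976 and 0.965% of Psmb8 and Psmb5 together in control replicates 1 to 3 and 2.48, 3.44 and 2.35% in KO replicates 1 to 3. Psmb9 made up 0.340, 0.302 and 0.420% of its pair with Psmb6 in control and 1.37, 2.15 and 1.55% in KO libraries. For Psmb10 and Psmb7 the share was 7.41, 6.63 and 6.81% in control and 8.12, 9.66 and 8.21% in KO libraries. All 3 shares were higher in every KO library than in every control, including that of Psmb10, whose own FPKM overlapped.

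**Figure D3:**
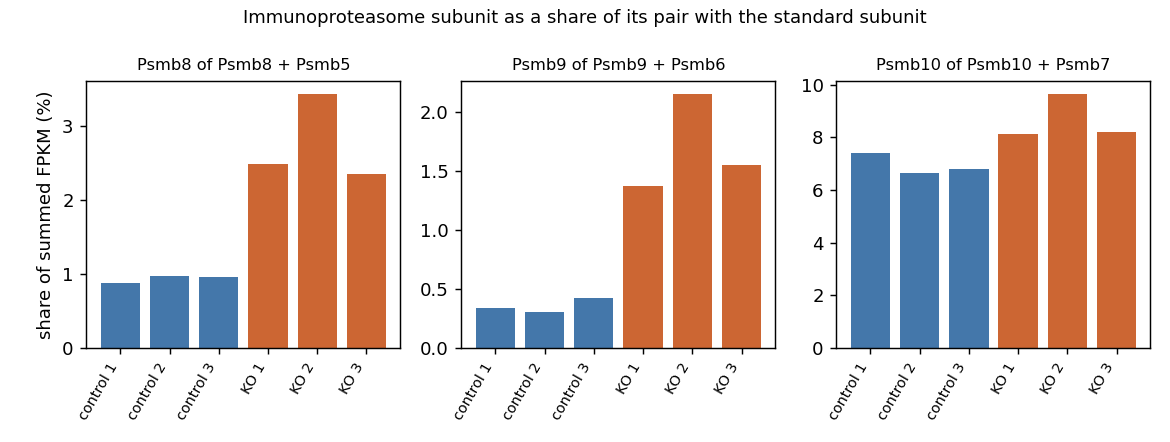
Share of each immunoproteasome subunit in the summed FPKM of itself and the standard subunit it replaces, in percent, 1 bar per library; the vertical scales differ between panels. KO bars reach at most 3.44% for Psmb8, 2.15% for Psmb9 and 9.66% for Psmb10, and each KO bar is above all control bars of its panel.

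Nlrc5 had the lowest level of the 10 genes. It stood at 0.139 FPKM in control replicate 1, was listed at 0 in control replicates 2 and 3, and reached 0.244, 0.320 and 0.432 FPKM across KO libraries 1 to 3. The KO libraries were all above the controls, but a value this low rests on an unknown number of reads. With a mean under 1 FPKM over the libraries it was not tested. Its log2 fold change moved with the pseudocount, from 0.35 with a pseudocount of 1 to 1.67 with 0.1. Nlrc5 was also the only member in which KO replicate 3 was the highest library.

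In a limma fit over the 14714 genes whose mean reached 1 FPKM, 9 of the 10 members were tested. At an adjusted p under 0.05, 4 rose in KO, H2-K1, H2-D1, B2m and Tap1, and 5 did not pass, Tap2, Tapbp, Psmb8, Psmb9 and Psmb10. Among all tested genes 0.326% were called higher and 0.00680% lower, but this contrast was known when the members were chosen, so nothing is read from the difference between these shares. Of the tested members, 3 had a control mean under 1 FPKM, Tap2, Psmb8 and Psmb9, and passed the filter through their KO values. All KO libraries were above all controls for 8 of the 10 members and 7 of the 9 tested, beside 3.27% of all tested genes. At an unadjusted p under 0.05 in limma, 307 of the 14714 tested genes were higher and 283 lower. Over the 10 members, the untested Nlrc5 included, the median log2 fold change was 1.00, beside -0.02 over all tested genes. The range was from 0.20 for Psmb10 to 2.48 for H2-K1. The order of the members by log2 fold change depended on the pseudocount, since several are low. With a pseudocount of 0.1 in place of 1 it was 1.99 for Psmb9, 1.67 for Nlrc5, 1.44 for Psmb8 and 1.07 for Tap2, beside 1.26 for B2m and 1.30 for Tap1. The call of Psmb9 changed with the processing. It passed in limma with a pseudocount of 0.1, with no filter, after rescaling to TPM, with library weights and without KO replicate 2, in a range of adjusted p from 0.0234 to 0.291 over all settings.

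KO libraries ranked alike for most members. KO replicate 2 was the highest of the 6 libraries for 9 members, and KO replicate 1 was the lowest KO library for 8. The median over the members of log2(FPKM + 1) above the control mean was 0.79, 1.28 and 0.87 in KO replicates 1 to 3, and lay between -0.03 and 0.02 in controls. Relative to its mean, the SD of the 3 KO libraries was 34.4% for H2-K1, 29.5% for H2-D1, 35.1% for Psmb8 and 36.2% for Psmb9, but 11.3% for B2m and 11.5% for Tap1. In controls it was 1.28% for H2-D1 and 12.5% for H2-K1. Without KO replicate 2 the log2 fold change was 2.23 for H2-K1, 1.92 for H2-D1, 1.17 for B2m and 1.02 for Tap1, and all 4 still passed. For Psmb10 it was 0.07 without that library, less than the 0.20 with it by more than 1.5 times. For Tapbp it was 0.18, against 0.27 with it, again by more than 1.5 times.

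The 5 genes outside the members whose log2(FPKM + 1) followed the mean profile of the members most closely over the 6 libraries were Rsad2 (Pearson r = 0.997), H2-Q4 (r = 0.995), Oas1a (r = 0.994), Ifi27l2a (r = 0.994) and Lgals3bp (r = 0.991). The correlation describes the same 6 libraries and includes the difference between the groups, so it is given without a test. These genes were picked among the tested genes only. Rsad2 and Oas1a had control means of 0.211 and 0.376 FPKM and passed the filter through their KO values, which favours a match to this profile. Rsad2, which encodes the antiviral enzyme viperin, stood at 0.156, 0.256 and 0.221 FPKM across controls 1 to 3, against 2.49, 4.50 and 3.17 FPKM across KO libraries 1 to 3. H2-Q4, a class I heavy chain of the Q region, stood at 2.79, 2.73 and 2.38 FPKM across controls 1 to 3, against 6.49, 9.88 and 6.78 FPKM across KO libraries 1 to 3. In all 5 genes KO replicate 2 was the highest library and KO replicate 1 the lowest KO library. The mean profile they were picked to follow has the same order, so this adds nothing to the correlation.

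Other genes of the pathway, in 9 lists of 97 genes, mostly did not pass the test. The lists were written with earlier results of these libraries known. Of 81 tested, 3 rose in KO, 0 fell and 78 did not pass in limma, beside the 0.326% of all tested genes called higher. Of 7 tested heavy chains other than the members 2 rose, H2-Q4 and H2-T23. H2-T23, which encodes the nonclassical molecule Qa-1, stood at 5.07, 5.68 and 4.25 FPKM across controls 1 to 3, against 10.2, 11.6 and 9.61 FPKM across KO libraries 1 to 3, which is 0.94 ± 0.11 (SE) as a log2 fold change, with an adjusted p of 0.0156 in limma. H2-Q4 had a log2 fold change of 1.24 ± 0.15 (SE), with an adjusted p of 0.0154 in limma. In both genes the groups did not overlap. Neither passed without control replicate 1 or 3. In limma, H2-Q4 then had an adjusted p of 0.0646 or 0.115 and H2-T23 of 0.0742 or 0.0644. H2-Q4 was also lost without control replicate 2 and H2-T23 without KO replicate 1 (limma, adjusted p = 0.0803 and 0.0692).

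Genes of the standard proteasome did not pass the test, which does not show that they were equal. The 11 shared subunits of the 20S core had a median log2 fold change of -0.01 and the 18 genes of the 19S regulatory particle one of -0.02, the same as over all tested genes. Together with Psmb5, Psmb6 and Psmb7, 0 of these 32 passed in limma, with 0 at an unadjusted p under 0.05. Psmb3 was at 89.4 ± 6.33 FPKM for controls, against 81.9 ± 8.13 for KO (SD, n = 3 each), Psmb1 at 57.9 ± 3.16 and 55.6 ± 3.14 FPKM, Psmd11 at 35.6 ± 0.783 and 33.8 ± 1.53 FPKM and Psmd8 at 83.2 ± 4.78 and 78.4 ± 7.38 FPKM. Of the 9 proteasome activators and assembly factors, 0 passed in limma and 0 had an unadjusted p under 0.05. They include Psme1, a subunit of the interferon-inducible PA28 cap, at 46.8 ± 2.89 and 50.4 ± 3.88 FPKM, and the assembly factor Psmg3 at 13.2 ± 1.63 and 11.6 ± 2.12 FPKM.

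Of 9 genes for peptide loading and chaperones, 0 passed in limma and 1 had an unadjusted p under 0.05. That was Erap1, the peptidase that trims peptides in the endoplasmic reticulum, at 1.94, 1.71 and 1.66 FPKM across controls 1 to 3, against 2.46, 2.22 and 2.37 FPKM across KO libraries 1 to 3. Tapbpl, a relative of tapasin that edits peptides, was at 1.61 ± 0.0114 and 1.88 ± 0.145 FPKM (SD, n = 3 each). Neither gene overlapped between the groups and neither passed. Of 6 cytosolic peptidases, 0 passed in limma and 0 had an unadjusted p under 0.05, among them Nrdc at 40.1 ± 2.50 and 38.2 ± 0.162 FPKM and Thop1 at 27.7 ± 1.02 and 26.1 ± 3.25 FPKM.

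**Figure D4:**
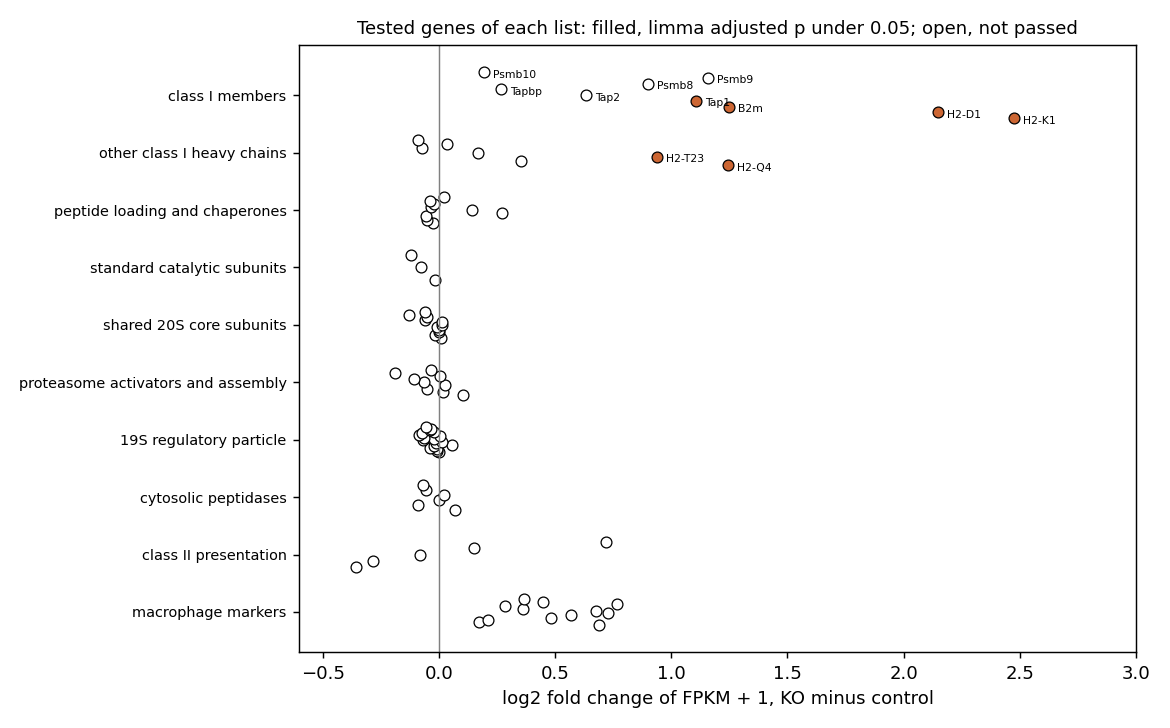
Log2 fold change of FPKM + 1, KO minus control, for each tested gene of the members, of 8 pathway lists and of the macrophage markers; filled points passed in limma at an adjusted p under 0.05, open points did not. Filled points are H2-K1, H2-D1, B2m, Tap1, H2-Q4 and H2-T23, and the proteasome lists lie around 0.

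Markers of macrophages moved in the same direction as the members. The 14 markers summed to between 74.9 and 93.2 FPKM in control and between 106 and 146 FPKM in KO libraries, with no overlap, and KO replicate 2 was highest here too. All 14 had a higher mean in KO. Of 12 tested, 0 passed in limma, 10 had an unadjusted p under 0.05 and 10 did not overlap between the groups. Among all 14714 tested genes, 307 were higher at an unadjusted p under 0.05 in limma. All KO libraries were above all controls for 3.27% of them. Lyz2, a lysozyme of macrophages, stood at 7.21, 9.81 and 9.17 FPKM across controls 1 to 3, against 17.05, 17.1 and 12.7 FPKM across KO libraries 1 to 3, Adgre1, which encodes F4/80, at 1.83, 1.38 and 2.10 and at 3.62, 3.74 and 2.98 FPKM, and C1qa, a complement chain, at 8.12, 8.94 and 10.8 and at 11.9, 18.4 and 13.1 FPKM. Ptprc, the antigen CD45 of all leukocytes, stood at 0.736, 0.538 and 0.464 FPKM across controls 1 to 3, against 1.00, 0.916 and 1.30 FPKM across KO libraries 1 to 3. The KO mean of the summed macrophage markers was 1.49 times the control mean. For the members that passed, this ratio was 7.67 for H2-K1, 5.15 for H2-D1, 2.40 for B2m and 2.50 for Tap1. For the tested members that did not pass, it was 2.28 for Tap2, 3.02 for Psmb8 and 4.69 for Psmb9. It was below that of the macrophage markers for Tapbp (1.22) and Psmb10 (1.18). The part of macrophages in the members' difference was not tested.

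Markers of lymphocytes were near 0. Cd3e, Cd3d, Cd8a, Gzma, Klrb1c, Prf1 and Ms4a1 were listed at 0 in all 6 libraries, as were Flt3, Itgax, Xcr1 and Ly6g. The 10 markers of T and natural killer cells summed to between 0.137 and 0.436 FPKM in control and between 0.145 and 0.314 FPKM in KO libraries, and the 4 B cell markers to between 0.996 and 1.17 and between 0.852 and 1.26 FPKM. The 5 markers of dendritic cells summed to between 1.29 and 1.67 FPKM in control and between 1.16 and 1.31 FPKM in KO libraries, and the 5 of neutrophils and mast cells to between 6.35 and 9.24 and between 7.20 and 11.5 FPKM. The 8 endothelial markers summed to between 136 and 156 FPKM in control and between 109 and 134 FPKM in KO libraries, lower without overlap. In limma 0 of these 8 passed and 3 had an unadjusted p under 0.05, beside 283 of all 14714 tested genes that were lower at that level.

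Class II genes, which professional antigen-presenting cells use, did not pass the test. Cd74, the invariant chain, stood at 2.92, 2.97 and 3.69 FPKM across controls 1 to 3, against 2.27, 3.49 and 1.36 FPKM across KO libraries 1 to 3, and H2-Ab1, a class II chain, at 1.47, 1.61 and 1.46 and at 0.876, 1.41 and 0.954 FPKM. H2-Ab1 was lower in every KO library than in every control and did not pass. Of 5 tested class II genes, 0 passed in limma and 1 had an unadjusted p under 0.05, the peptidase gene Ctss, at 5.29, 3.95 and 5.41 FPKM across controls 1 to 3, against 8.11, 10.6 and 7.47 FPKM across KO libraries 1 to 3.

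**Figure D5:**
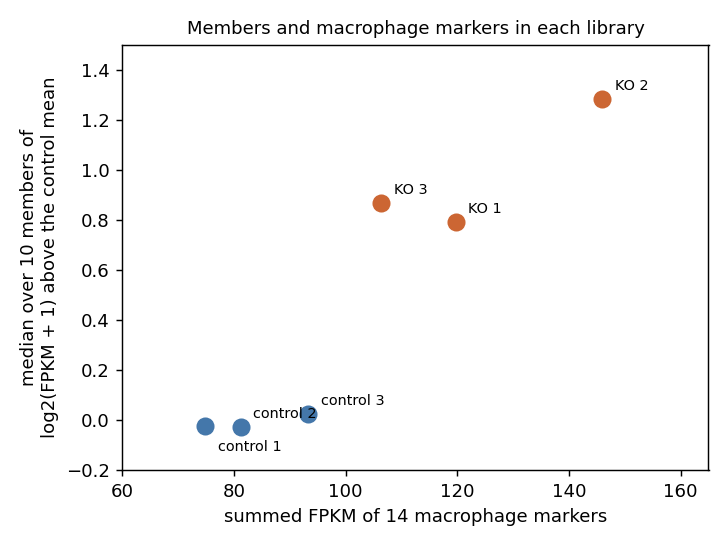
Median over the 10 members of log2(FPKM + 1) above the control mean against the summed FPKM of 14 macrophage markers, 1 point per library. KO libraries lie at 0.79 to 1.28 and 106 to 146 FPKM, controls at -0.03 to 0.02 and 74.9 to 93.2 FPKM.

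By position, 7 of the members lie in the H2 region of chromosome 17 and the others elsewhere (GRCm38). Psmb9 (34181987 to 34187764, minus strand), Tap1 (34187553 to 34197225), Psmb8 (34197721 to 34201454) and Tap2 (34203527 to 34216321, all plus strand) follow each other within 34.3 kb. H2-K1 (33996017 to 34000347, minus strand) lies 181.6 kb to one side, with Tapbp (33915899 to 33929292, plus strand) a further 66.7 kb on, and H2-D1 (35262730 to 35267499, plus strand) lies 1046.4 kb to the other side. B2m lies on chromosome 2 (122147686 to 122153083, plus strand), Psmb10 on chromosome 8 (105935735 to 105938444, minus strand) and Nlrc5 on chromosome 8 (94434356 to 94527272, plus strand). Of the 4 members that passed, 3 are in the H2 region and B2m is not. Within 100 kb of any member there were 51 other tested genes. In limma 0 of them passed, 1 was higher and 2 were lower at an unadjusted p under 0.05, and their median log2 fold change was -0.06. Among all 14714 tested genes 0.326% were called higher, and 307 were higher and 283 lower at that unadjusted level. With so few neighbours, nothing is read from their counts.

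Reads of some members can be shared with other genes. Of the 50-base words in the annotated protein-coding transcripts of H2-D1, 13.93% also occur in transcripts of another gene. The share was 6.87% for H2-K1, 22.42% for Tapbp, 12.09% for Tap2, 5.51% for Psmb8 and 0.83% for Tap1. None of the words of B2m, Psmb9, Psmb10 and Nlrc5 were shared. H2-K1 and H2-D1 share 5.43% of the H2-K1 words with each other, so the split of reads between the heavy chains is uncertain. The main partners outside the members, named after this count was made, were low. H2-Q1, which holds 6.68% of the H2-D1 words, stood at 0, 0 and 0.119 FPKM across controls 1 to 3. Across KO libraries 1 to 3 it was higher, at 0.223, 0.289 and 0.195 FPKM. Gm15821 and Gm20496, which lie on the opposite strand across Tap2 and Psmb8, were at most 0.161 FPKM. Gm19412, opposite to Tapbp, was between 0.436 and 1.05 FPKM. AC122861.4, which holds 1.72% of the Tapbp words, was between 0.554 and 1.33 FPKM. The annotated gene spans of Psmb9 and Tap1, which cover all their transcript models, overlap by 212 bases on opposite strands. Without a stated strand setting reads there cannot be told apart.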

How the data were processed

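The authors deposited 1 table of FPKM, named so by the file, for 55631 Ensembl genes and 6 libraries, and the submitters' processing notes name mm10 as build and, as a tool, DESeq2 1.5.2. For the aligner, annotation and strand, nothing is given in the sources used here. Columns were assigned by the library names and groups by the titles in the labels. Symbols and positions came from GENCODE M21 on GRCm38, where 50824 IDs matched. No libraries held identical values.

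From these values log2(FPKM + 1) was fitted with limma (3.58.1, under R 4.3.3), with genotype as the only term and eBayes with a trend, for 14714 genes whose mean reached 1 FPKM. Tests were two-sided, adjusted by Benjamini-Hochberg over these genes at a threshold of 0.05. The scale understates changes of low genes. The fit was tested on simulated data. The members and lists were chosen with earlier results of these data known. Beside the members, the text names Psmb5, Psmb6 and Psmb7, from each pathway list up to 4 genes that passed or else the 2 of smallest p, a fixed set of markers and the 5 genes most like the members. Some genes that this rule names are not reported here. Alternatives were another pseudocount, 3 filters, 3 scalings, 3 variance settings, a replicate block and each library left out. Depth is unknown, so no counting interval is given.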

Additional observations from a re-analysis of the deposited data

How the results depend on the processing

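H2-K1, H2-D1, B2m and Tap1 passed in limma under all 17 alternatives, and none of 167 recomputed member values changed direction. The count of members called higher was 4, and 4 or 5 under the alternatives. With a pseudocount of 0.1 the median log2 fold change of the 10 members was 1.37, and after rescaling to TPM 1.24, against 1.00. Both settings lower the pseudocount relative to the values. A filter at a mean of 5 FPKM left 9923 genes and 24 calls, against 49 in all. Of the pathway genes 3 passed, 4 with no filter, and between 1 and 3 with 1 library left out. Psmb5, near 0 (log2 fold change -0.02), turned to 0.0077 with quantile normalization, 0.0034 with median-of-ratios scaling and 0.015 after rescaling to TPM. With 1 library left out it lay between -0.1128 and 0.0399, and above 0 without control replicate 2 or 3 (0.0033, 0.0111) or KO replicate 1 or 3 (0.0399, 0.0233).

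Replicate numbers are shared between the groups, but the data show no steady pairing by number. The deviations of same-numbered libraries correlated at 0.019, 0.305 and -0.241. Between differently numbered libraries they ran from -0.284 (control 1 with KO 2) to 0.314 (control 1 with KO 3). A pairing in another order was not tested. With the replicate block 42 genes passed, and the same count of 4 members. With the unknown depth, values under 1 FPKM, as for Nlrc5, could not be given a counting error.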
